A study of Mus musculus with 6 samples.

Results

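From the structural maintenance of chromosomes (SMC) family of the mouse 7 genes were taken, out of 18193 genes with 1 symbol. These members were Smc2, Smc4, Smc1a, Smc3, Smc5, Smc6 and Smchd1. The meiotic SMC gene Smc1b was also measured, but was not a member and is given with the partners below. The members were read by 23 of the 45037 probe sets tested, and every probe set whose single gene symbol was 1 of the 7 was taken. The family was chosen from measured values of these arrays: Smc4 was picked because it moved in clone A1 against the other 2 clones after induction. The contrast between clone A1 and the other clones is therefore described below, and no test of it is given as support. Smc2 and Smc4 belong to condensin and Smc1a and Smc3 to cohesin, whereas Smc5 and Smc6 form the SMC5/6 complex and Smchd1 encodes a noncanonical SMC protein, so the list is wider than condensin and cohesin.

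Canonical SMC proteins are long ATPases that pair through a hinge and close into a ring with a kleisin subunit, and these rings hold or extrude loops of DNA. Condensin compacts chromosomes for mitosis, cohesin holds sister chromatids together and shapes interphase loops, SMC5/6 acts in DNA repair and replication, and Smchd1 is needed for gene silencing on the inactive X chromosome. Mouse embryonic stem (ES) cells divide rapidly, and their chromosomes depend on condensin and cohesin.

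The study asked which genes respond when a gene of the Williams-Beuren syndrome region is overexpressed in ES cells. The induced group held 3 clones, A1, B3 and C6, 24 h after removal of tetracycline, and the uninduced group held the same 3 clones in tetracycline, at 0 h. In all 6 cultures the human GTF2I coding sequence, without its untranslated regions and with a FLAG tag, sat at the Rosa26 locus of the EBRTcH3 (EB3) ES cell line behind a promoter that tetracycline represses, and the cells were kept in serum with LIF, which holds them undifferentiated. Total RNA of each culture was hybridised to 1 Affymetrix whole-genome mouse array, and the labels call the 3 arrays of a group biological replicates. Each clone is a single line, no clone without the transgene was among the arrays, and effects of GTF2I and of tetracycline removal cannot be told apart. A characteristics field of the labels names GTF2IRD2, while the titles and the series name GTF2I, and the titles were followed.

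The median log2 value of an array was 5.06 to 5.11, and any 2 arrays correlated at 0.991 to 0.996. All 11 ES cell markers measured had a mean of at least 6 over the arrays, against 3 of 11 fibroblast markers and 6 of 14 early differentiation markers. Of the last, Otx2 read 5.50, 7.55 and 7.93 in induced and 5.70, 7.35 and 7.91 in uninduced A1, B3 and C6 cells. Krt8 read 7.84, 6.38 and 5.89 in induced and 7.85, 6.35 and 6.04 in uninduced cells. Otx2 and Krt8 were named after their values were seen, and the clones thus differed in them in both states. The summed level of the fibroblast markers, as log2, was 8.64 to 9.01 in induced and 8.77 to 8.93 in uninduced cultures. The 4 probe sets of mouse Gtf2i differed by -0.42 to 0.01 on the log2 scale, induced minus uninduced, and none was called. Whether they read the human transgene was not tested. In the paper's real-time RT-PCR time course, the GTF2I transcript was higher at 24 h than at 0 h in each of clones A1, B3 and C6. The 18S ribosomal RNA control at the 3′ end was 1.10 lower in induced than in uninduced A1 cells on the log2 scale, but 1.77 higher in induced B3 and 1.98 higher in induced C6 cells.

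Across the 3 clones together, no family member was called when induced cells were compared with uninduced cells. With limma and Benjamini-Hochberg adjustment over all 45037 probe sets, 0 of the 23 members passed an adjusted p of 0.05 and each had an adjusted p of 1.00, beside a background of 0% of all probe sets. An unadjusted p under 0.05 was reached by 436 of all probe sets and by 0 members. By the per-gene test named in the methods, 867 of all probe sets had an unadjusted p under 0.05 and 0 passed adjustment. Of the members, 14 had a higher mean in induced cells and 9 a lower mean, with a median difference of 0.04 against 0.00 over all probe sets on the log2 scale. The differences ran between -0.24 and 0.47. The induced and uninduced values overlapped in all 23 members, whereas they did not overlap in 4.55% of all probe sets. The 95% interval reached 0.21 to 1.22 to either side of the estimate (median 0.30), so smaller changes could not be told from none. In these bulk cultures fewer cells of a type and less RNA per cell cannot be told apart.

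**Figure D1:**
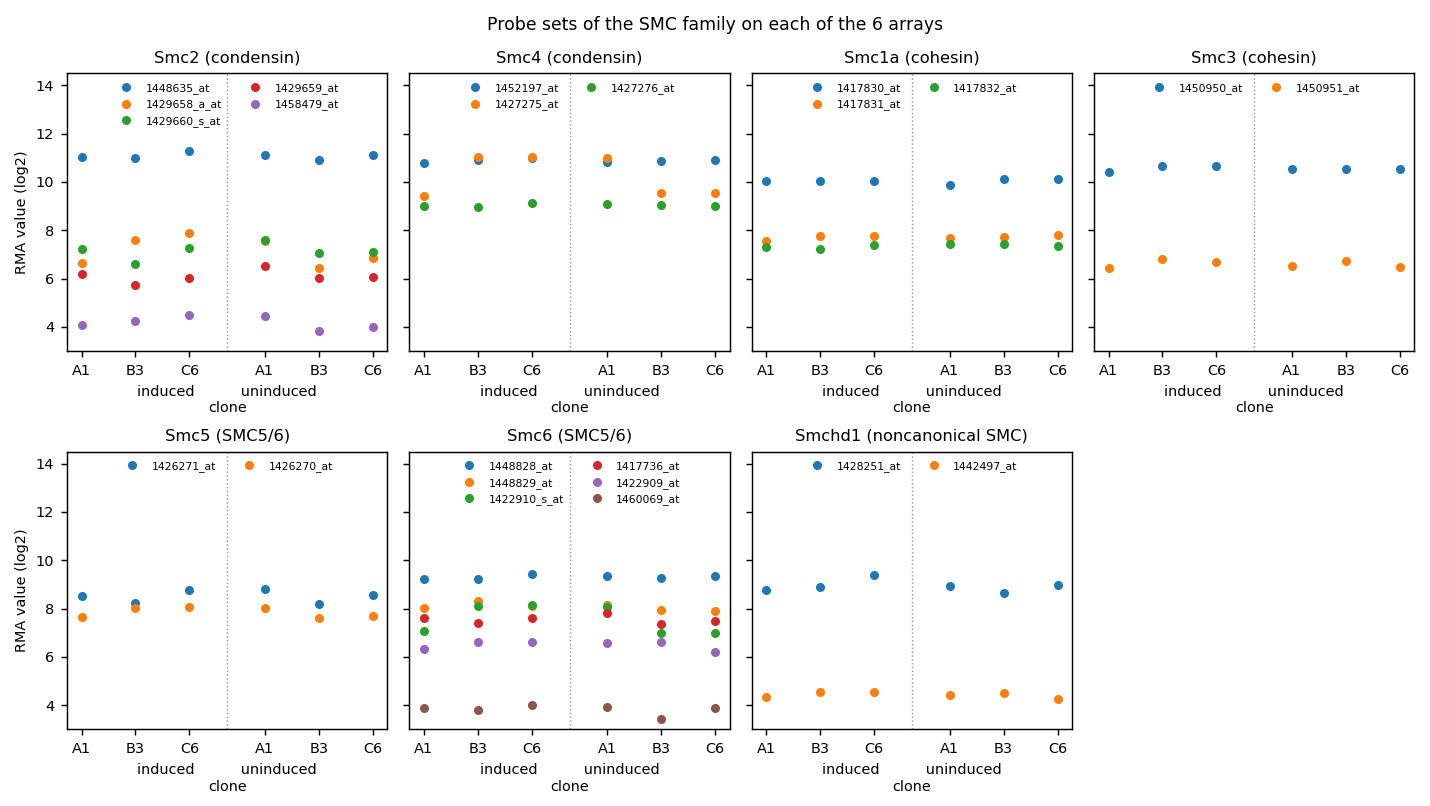
RMA values (log2, vertical axis) of the 23 SMC family probe sets, 1 panel per gene, in the induced cultures (left of the dotted line) and the uninduced cultures (right) of clones A1, B3 and C6. Each point is 1 array, and levels of different probe sets are not comparable. The Smc4 probe set 1427275_at lay at 9.40 in induced and 10.98 in uninduced A1 cells, and at 11.04 in induced and 9.54 in uninduced B3 cells.

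Smc4 encodes a core ATPase of both condensin complexes, and its 3 probe sets gave different pictures. Probe set 1427275_at read 9.40, 11.04 and 11.02 in the induced cells of A1, B3 and C6, and 10.98, 9.54 and 9.53 in their uninduced cells. Induced A1 cells were thus as low as uninduced B3 and C6 cells, and uninduced A1 cells as high as induced B3 and C6 cells. The induced cells held 0.334 times the uninduced level for A1, 2.83 times for B3 and 2.82 times for C6. The group means were 10.49 ± 0.94 in induced and 10.02 ± 0.84 in uninduced cells (SD, n = 3 each), and their difference of 0.47 on the log2 scale had a 95% interval of -0.75 to 1.69.

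The other Smc4 probe sets did not follow it. Probe set 1452197_at read 10.77, 10.90 and 10.99 in induced and 10.83, 10.85 and 10.90 in uninduced A1, B3 and C6 cells. Probe set 1427276_at read 9.01, 8.98 and 9.11 in induced and 9.10, 9.05 and 9.02 in uninduced cells of the same clones. The largest difference of either within a clone was 0.09 on the log2 scale. Their differences over the 3 clones were 0.03 (95% interval -0.20 to 0.25) for 1452197_at and -0.02 (-0.23 to 0.19) for 1427276_at. The platform annotation ties 1427275_at and 1427276_at to the same transcript record.

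Smc2 encodes the partner ATPase of Smc4 in condensin and had 5 probe sets. Probe set 1429658_a_at, where the ending _a_at marks a set for several transcripts of 1 gene, read 6.64, 7.61 and 7.87 in induced A1, B3 and C6 cells and 7.57, 6.45 and 6.84 in uninduced cells. A1 was again the clone in which the induced culture was the lower, at 0.528 times its uninduced level, against 2.23 times in B3 and 2.04 times in C6. Its difference over the clones was 0.42 on the log2 scale (95% interval -0.42 to 1.27).

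Probe set 1448635_at, the strongest of Smc2, read 11.03, 10.99 and 11.29 in induced and 11.11, 10.93 and 11.14 in uninduced A1, B3 and C6 cells, and differed by 0.04 (95% interval -0.23 to 0.32). Probe sets 1429659_at and 1429660_s_at, tied to the same transcript record as 1429658_a_at, had lower means in induced cells. For 1429659_at the within-clone differences were -0.34, -0.28 and -0.05 in A1, B3 and C6, the only member that was lower in the induced culture of every clone, and the difference of -0.23 had a 95% interval of -0.63 to 0.18. For 1429660_s_at they were -0.39, -0.46 and 0.13. The dim probe set 1458479_at differed by -0.36, 0.45 and 0.49.

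Smc1a and Smc3 encode the ATPase pair of cohesin. Smc1a probe set 1417830_at read 10.04, 10.05 and 10.04 in induced A1, B3 and C6 cells and 9.87, 10.14 and 10.13 in uninduced cells. Its induced cultures lay together, and it was the only member in which the induced A1 culture was the higher of its clone while the induced B3 and C6 cultures were the lower. The largest within-clone difference of the other 2 Smc1a probe sets was -0.19, in B3. The Smc1a differences over the clones were -0.01 for 1417830_at, -0.04 for 1417831_at and -0.09 for 1417832_at.

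Smc3 probe set 1450950_at read 10.42, 10.67 and 10.66 in induced and 10.56, 10.56 and 10.53 in uninduced A1, B3 and C6 cells. The uninduced cultures of the 3 clones were close, and the induced A1 culture was the lowest of the 6. Its difference was 0.04 (95% interval -0.20 to 0.28), and that of 1450951_at was 0.05 (-0.24 to 0.35).

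Smc5 and Smc6 encode the ATPases of SMC5/6. Smc6 had 6 probe sets, and 1422910_s_at, where _s_at marks a set that may read more than 1 transcript or gene, read 7.08, 8.09 and 8.15 in induced and 8.08, 6.98 and 6.98 in uninduced A1, B3 and C6 cells. As for the Smc4 probe set 1427275_at, induced A1 cells stood with uninduced B3 and C6 cells. The induced culture held 0.498 times the uninduced level for A1, 2.15 times for B3 and 2.26 times for C6. The difference over the clones was 0.43 on the log2 scale (95% interval -0.44 to 1.29).

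The remaining Smc6 probe sets moved less. The strongest, 1448828_at, read 9.23, 9.21 and 9.43 in induced and 9.33, 9.25 and 9.36 in uninduced A1, B3 and C6 cells. Within a clone the 5 remaining Smc6 probe sets differed by at most 0.41 on the log2 scale, among them 1422909_at (-0.25, 0.01 and 0.41 in A1, B3 and C6), which the annotation ties to the same transcript record as 1422910_s_at. Smc6 probe set 1448829_at differed by -0.09, 0.39 and 0.24 in A1, B3 and C6, and by 0.18 over the clones (95% interval -0.09 to 0.45). Probe set 1417736_at differed by -0.20, 0.05 and 0.11, and the dim 1460069_at by -0.04, 0.36 and 0.15. These sets and 1422909_at had the signs of 1422910_s_at, whereas 1448828_at (-0.10, -0.04 and 0.06) did not.

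Smc5 probe set 1426270_at read 7.64, 8.04 and 8.08 in induced and 8.02, 7.63 and 7.71 in uninduced A1, B3 and C6 cells. Here too the induced culture was the lower one in A1 and the higher one in B3 and C6, by -0.38, 0.41 and 0.37. Smc5 probe set 1426271_at had the same signs with -0.30, 0.03 and 0.19. The differences over the clones were 0.13 (95% interval -0.23 to 0.50) for 1426270_at and -0.03 (-0.47 to 0.42) for 1426271_at.

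Smchd1 probe set 1428251_at read 8.751, 8.898 and 9.387 in induced and 8.951, 8.666 and 8.995 in uninduced A1, B3 and C6 cells. The induced C6 culture was the highest of the 6. The difference over the clones was 0.14 (95% interval -0.27 to 0.55). The dim Smchd1 probe set 1442497_at lay between 4.35 and 4.55 in induced and between 4.25 and 4.52 in uninduced cells.

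**Figure D2:**
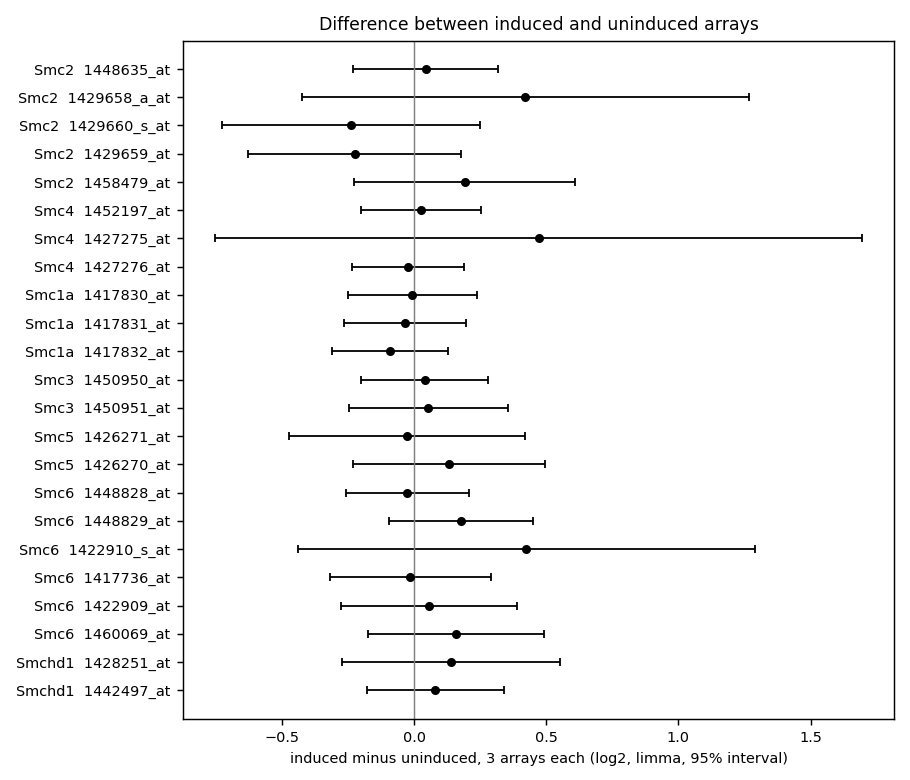
Difference between induced and uninduced arrays (log2, horizontal axis) of each SMC family probe set, with its 95% interval from limma over 3 arrays per group. All 23 intervals include 0, and the widest, at 1.22 to either side, belongs to Smc4 1427275_at.

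Sequence upstream of the family members is shown for Smc2 and Smc6, because both genes held a probe set that moved with the Smc4 probe set 1427275_at. RefSeq windows of the 250 bases before the start, on build GRCm38.p6, were matched for 6 of the 7 genes, all but Smc4. Motifs were searched as exact letters on both strands: the cell cycle homology region (CHR) as TTTGAA, the CCAAT box by its own letters, the E box as CACGTG, and E2F as any of TTTCCCGC or TTTCGCGC or TTTGGCGC. In the windows below, capitals mark TTTGAA, which reads TTCAAA on the strand shown, and CCAAT, and both windows lie on the plus strand of the chromosome.
Smc2, chr4:52438971-52439220: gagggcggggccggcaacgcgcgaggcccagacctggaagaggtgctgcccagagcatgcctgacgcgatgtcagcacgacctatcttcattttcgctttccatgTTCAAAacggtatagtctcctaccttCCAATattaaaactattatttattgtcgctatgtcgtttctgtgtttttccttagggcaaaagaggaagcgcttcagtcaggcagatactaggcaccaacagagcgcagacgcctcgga
Smc6, chr12:11265636-11265885: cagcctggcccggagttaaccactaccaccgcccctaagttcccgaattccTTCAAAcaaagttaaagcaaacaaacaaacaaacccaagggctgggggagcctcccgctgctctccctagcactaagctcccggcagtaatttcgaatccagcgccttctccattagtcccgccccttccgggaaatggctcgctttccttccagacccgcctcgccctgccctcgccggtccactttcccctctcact
The CHR letters began 145 bases before the start of Smc2 and 199 bases before that of Smc6, and they were in none of the other 4 windows, beside 16.0% of all 32851 windows. CCAAT was in the windows of Smc2 and Smc1a, beside 33.9% of all windows. The E box letters (6.02% of all windows) and the E2F letters (1.53%) were in 0 of the 6 windows. The GC content was 43.2% for Smc5, 51.6% for Smc2, 56.8% for Smc1a, 58.0% for Smc6, 64.4% for Smc3 and 75.6% for Smchd1, beside a median of 52.4% over all windows. The window of Smc5 began 1323 bases inside the outermost annotated start of its gene. A match is a description of letters and not a binding site.

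By the sign of the within-clone difference, 17 of the 23 members moved in A1 against both B3 and C6, beside 41.4% of all probe sets. Of the 20 members whose mean reached 6, 14 did so, beside 60.3%. In 16 of the 17 members the induced A1 culture was the lower one, as it was in 52.0% of all probe sets with opposite signs. Taken in the same way, B3 stood against A1 and C6 in 1 member and C6 against A1 and B3 in 4. Signs alone take in very small differences: the opposite movement of Smc4 1452197_at rested on -0.06, 0.05 and 0.09 on the log2 scale. This contrast chose the family, and nothing is read from these shares.

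Large opposite movement was limited to 3 of the 23 probe sets. With at least 0.5 on the log2 scale in every clone, A1 against both others, and a mean of at least 6, they were Smc4 1427275_at, Smc2 1429658_a_at and Smc6 1422910_s_at, or 3 of 20 members, beside 1.62% of all such probe sets. By the size of the A1 difference minus the mean of the B3 and C6 differences they ranked at 8 for Smc4, 46 for Smc6 and 61 for Smc2 among 17168 probe sets. The other 20 members reached at most 0.49 in any clone. Nearest outside the limit were Smc2 1458479_at (-0.36, 0.45 and 0.49 in A1, B3 and C6), whose mean was also under 6, and Smc5 1426270_at (-0.38, 0.41 and 0.37). By this limit of size each of the 3 probe sets stood alone in its gene. Over all genes, 189 large opposite probe sets had another probe set of the same gene with a mean of at least 6. In 76.7% of them no other probe set of the gene with that mean was large and opposite. In 42.9% of them every other probe set of the gene with that mean was under 0.5 in every clone, as in Smc4, Smc2 and Smc6. The 18S control moved in the same directions as the 3 probe sets, by -1.10, 1.77 and 1.98 in A1, B3 and C6 at its 3′ end and by -0.58, 2.52 and 1.89 at its 5′ end, and its part in the result was not tested. The 3′ minus 5′ signal of beta-actin, a measure of RNA integrity and priming, was 0.40 to 0.58 in induced and 0.35 to 0.43 in uninduced cells. The same measure of the transferrin receptor differed by 0.43, 0.43 and -0.11 in A1, B3 and C6, that of pyruvate carboxylase by -0.11, 0.13 and -0.29, and that of Gapdh by 0.07, 0.02 and -0.09, induced minus uninduced.

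**Figure D3:**
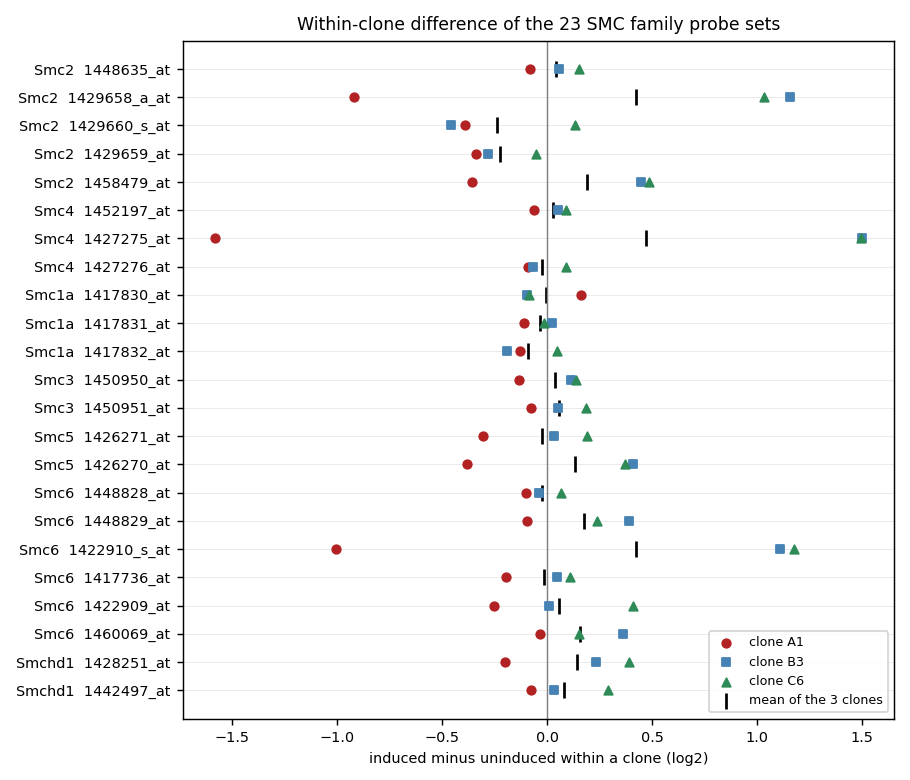
Induced minus uninduced difference (log2, horizontal axis) of each SMC family probe set within clone A1 (circles), B3 (squares) and C6 (triangles), with the mean of the clones (bars). The A1 points of Smc4 1427275_at (-1.58), Smc6 1422910_s_at (-1.005) and Smc2 1429658_a_at (-0.92) lie left of all others, and the B3 and C6 points of these probe sets lie right of all others.

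Leaving out clone A1 changed the calls. B3 and C6 alone were fitted with the clone as a block and limma with Benjamini-Hochberg adjustment. In this fit 3 of the 23 members were higher in induced cells, beside 0.87% of all probe sets. Of the members 0 were lower, beside 589 of all 45037 probe sets. These backgrounds are over all probe sets, dim ones included. The differences of the 3 higher members on the log2 scale were 1.497 for Smc4 1427275_at (95% interval 1.26 to 1.73), 1.14 for Smc6 1422910_s_at (0.90 to 1.38) and 1.09 for Smc2 1429658_a_at (0.85 to 1.33). Without the block, 0 members were called in these 2 clones, and Smc4 1427275_at had an adjusted p of 0.0798. Clone A1 was left out because of the contrast that chose the family, so these values describe B3 and C6 and are no test of induction.

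The other subunits, partners and regulators gave mostly small values. Of 34 such genes, which include the meiotic SMC gene Smc1b and were read by 77 probe sets, 0 probe sets were called over the 3 clones, beside the background of 0% above. With 1 probe set per gene, the median difference on the log2 scale was 0.03 over 6 non-SMC condensin subunits and -0.05 over 5 non-SMC cohesin subunits. It was 0.03 over 14 cohesin regulators (loading, release, acetylation, cleavage and related factors such as Hdac8 and Ctcf) and 0.02 over 7 SMC5/6 partners. Of these genes 4 of 6, 4 of 5, 8 of 14 and 7 of 7 moved in A1 against both other clones, beside the 41.4% of all probe sets and the 60.3% of those with a mean of at least 6 given above. The medians within A1, B3 and C6 were -0.12, 0.11 and 0.10 for the condensin subunits and -0.18, 0.02 and 0.03 for the cohesin subunits.

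Among the condensin subunits, the kleisin gene Ncaph differed by -0.22, 0.28 and 0.25 in A1, B3 and C6 on the log2 scale. The HEAT repeat subunits Ncapg (-0.20, 0.13 and 0.10) and Ncapg2 (-0.18, 0.23 and 0.10) had the same signs, whereas Ncapd2 differed by 0.18, 0.03 and -0.40. These are the strongest probe sets. The other probe set of Ncaph (-0.03, -0.11 and 0.02), Ncapg (-0.67, -0.02 and 0.56) and Ncapd2 (-0.17, 0.33 and 0.11) did not keep the signs of its gene. For cohesin, the strongest probe set of the kleisin gene Rad21 differed by 0.19, -0.09 and -0.18. Those of Stag2 (-0.18, 0.02 and 0.22) and Stag1 (-0.20, 0.03 and 0.03), which encode alternative HEAT repeat subunits, had the opposite signs. Rad21 1416162_at (0.12, -0.30 and -0.28) kept the signs of its gene, but 1455938_x_at (0.14, 0.11 and 0.17) did not. Stag1 1434189_at (-0.25, 0.25 and 0.26) kept them, but 1421939_a_at (-0.35, -0.16 and -0.17) and 1421940_at (-0.14, -0.32 and -0.04) did not. Nor did Stag1 1441724_at (0.09, 0.15 and -0.04) and 1450420_at (0.001, -0.19 and -0.08). The other Stag2 probe set, 1450396_at (-0.26, -0.03 and 0.14), did not keep the signs of its gene. The meiotic subunit gene Stag3 was lower in the induced culture of each clone, by -0.14, -0.21 and -0.27, and was not called.

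Of the cohesin regulators, Espl1, which encodes the protease separase, differed by 0.30, -0.11 and -0.43, and its inhibitor securin, Pttg1, by -0.23, 0.31 and 0.21. Sororin, Cdca5, which protects bound cohesin, differed by -0.09, 0.20 and 0.28, and the acetyltransferase gene Esco1 by -0.23, 0.29 and 0.06. The other probe sets, Cdca5 1448466_at (0.06, 0.0006 and 0.08) and Esco1 1424325_at (-0.39, -0.07 and 0.12), did not keep the signs of their genes. The strongest probe set of Pttg1 had signs opposite to those of Espl1, as did Pttg1 1424105_a_at (-0.17, 0.17 and 0.12). The dim Pttg1 1419620_at (0.20, -0.09 and -0.11) had the same signs as Espl1. Of the SMC5/6 partners, Nsmce3 (0.19, -0.22 and -0.41) had signs opposite to those of the SUMO ligase gene Nsmce2 (-0.27, 0.28 and 0.09), Slf1 (-0.24, 0.21 and 0.31) and Slf2 (-0.09, 0.13 and 0.20), whose human counterparts bring SMC5/6 to damaged DNA. The meiotic cohesin gene Smc1b differed by -0.27, 0.05 and 0.15, and Lrif1, a partner of Smchd1, by -0.33, 0.21 and 0.04.

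A single probe set of the partners moved as widely as the 3 of the family, and it was chosen after its values were seen. Nipbl, the cohesin loader, had 1430309_at at 7.62, 9.08 and 8.55 in induced and 8.77, 7.87 and 7.68 in uninduced A1, B3 and C6 cells. Its differences were -1.16, 1.21 and 0.87 on the log2 scale. In B3 and C6 alone, with the clone as a block, it was the 1 of the 77 partner probe sets that limma called higher in induced cells, beside 0.87% of all probe sets. Of the partner probe sets 0 were called lower, beside 589 of all 45037 probe sets. Clone A1 was left out because of the contrast that chose the family, so this call is no test of induction. The strongest Nipbl probe set, 1437158_at, differed by -0.17, 0.22 and 0.04. Nipbl 1453576_at (-0.39, 0.43 and 0.20) and 1443992_at (-0.30, 0.10 and 0.10) had the same signs, whereas the dim 1442103_at (0.38, 0.33 and -0.34) did not. As in Smc4, the widest movement was in 1 probe set and not in the strongest set of the gene. Unlike in Smc4, other probe sets of the gene followed in part. A list of 24 S, G2 and M phase genes had a median difference of -0.02, with medians of -0.03, 0.01 and -0.01 in A1, B3 and C6. Of these genes 21 of 24 moved in A1 against both other clones, 12 of them with the induced A1 culture the lower and the rest with it the higher, so the medians are over members that went both ways.

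**Figure D4:**
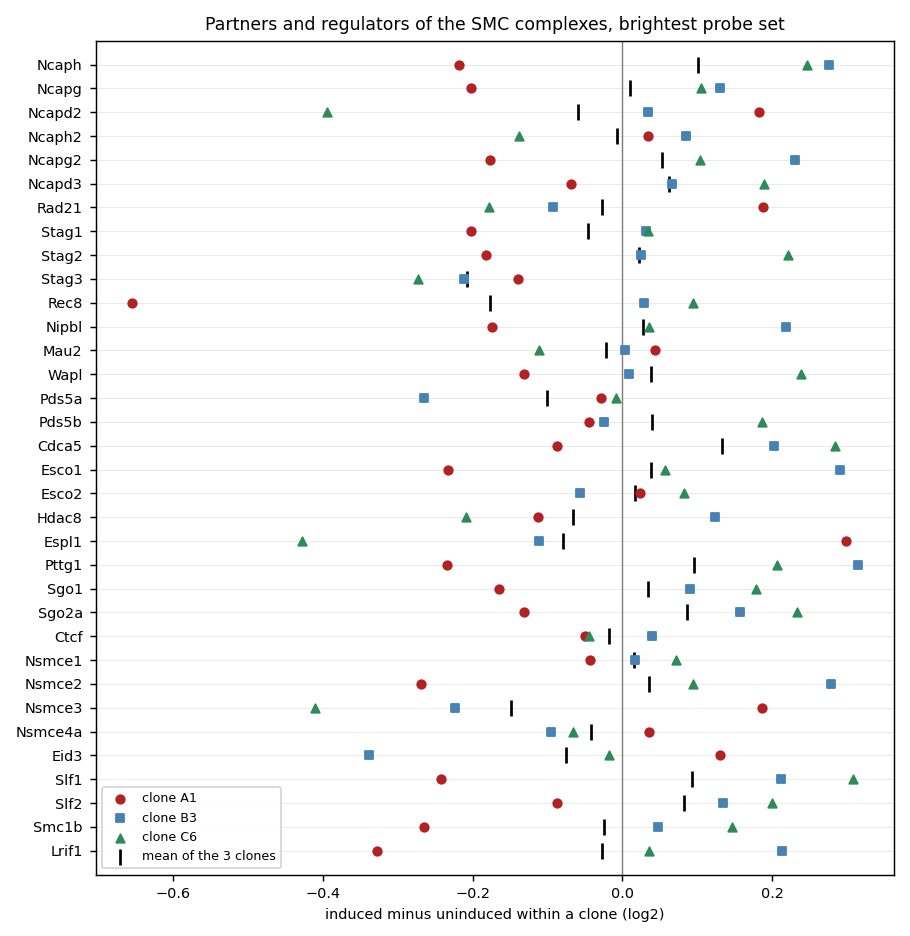
Induced minus uninduced difference (log2, horizontal axis) within clone A1 (circles), B3 (squares) and C6 (triangles) for the strongest probe set of 34 condensin, cohesin, SMC5/6 and Smchd1 partners and regulators, with the mean of the clones (bars). Most points lie within 0.4 of 0, and Ncaph lies at -0.22 (A1), 0.28 (B3) and 0.25 (C6).

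The genes most like Smc4 over the 6 arrays were found by Pearson's r among 9560 genes, 1 probe set each with a mean of at least 6. For Smc4 1452197_at they were Tasor2 (r = 0.994), Uri1 (0.990), Zfp638 (0.988), Nup54 (0.988), Nucks1 (0.986), Brwd3 (0.986), Zfp788 (0.984) and Acyp2 (0.984). That probe set spanned 0.23 on the log2 scale over the arrays. For Smc4 1427275_at, a probe set singled out after its values were seen, they were Kif5b (r = 0.997), Zfp622 (0.996), Ythdc1 (0.995), Wdr44 (0.995), Srp19 (0.995), Evi5 (0.995), Mex3c (0.991) and Csnk1d (0.990). The 2 Smc4 probe sets shared 0 of these 8 genes. The arrays share clones and 1 normalization, so these correlations are a description.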

How the data were processed

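The authors deposited log2 probe-set values made by robust multiarray averaging (RMA) in the affy package, with versions not given in the sources used here. Of 45101 probe sets, 64 Affymetrix controls were left out of the tests, and 45037 remained. RMA equalises array distributions, so a shift common to all genes would not be seen. Groups and clones came from the sample titles. Induced and uninduced arrays were compared with limma 3.58.1 (R 4.3.3; lmFit and eBayes, two-sided, Benjamini-Hochberg adjustment, threshold 0.05). This replaced the per-gene t-test of the methods, which was run as an alternative, with quantile normalization, median centring, an intensity trend, a mean of at least 6, a clone block and arrays or clones left out. The code was tested on simulated data. The p-values measure the spread between these clones, 1 array per clone and state, and the number of arrays limits the precision. Each clone was in both groups, which pairs the arrays. Deviations of same-clone arrays correlated at 0.19 (A1), 0.53 (B3) and 0.31 (C6).

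The members and lists were chosen with earlier results of these data known. Genes named were every family probe set, up to 4 genes per partner list with the largest mean size of within-clone difference and a mean of at least 6, and the 8 genes most like the strongest Smc4 probe set by Pearson's r. Nipbl, Otx2, Krt8 and the 8 genes most like Smc4 1427275_at were named outside this rule, after their values were seen. So were partner probe sets other than the strongest of a gene, such as Pttg1 1419620_at. A list gene was read by its strongest probe set. Gene names came from the platform annotation. Sequences came from RefSeq promoter tables of GRCm38.p6, and motif searches, counts and figures were made in Python 3.11.15 with pandas 2.3.3 and matplotlib 3.10.9. Rad21l, Ccnb1, Fbn1 and T had no matched probe set.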

Additional observations from a re-analysis of the deposited data

Results flagged for a closer look

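For 3 probe sets the induced A1 culture moved one way and the induced B3 and C6 cultures the other, by at least 0.5 on the log2 scale in each clone. The A1 difference minus the mean of the B3 and C6 differences was -3.08 for Smc4 1427275_at, -2.15 for Smc6 1422910_s_at and -2.01 for Smc2 1429658_a_at. A limma fit of this contrast served only to flag probe sets for a closer look. It is no support for a difference between clones, because each clone had 1 array per state and Smc4 was chosen for this contrast.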

How the results depend on the processing

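Over the 3 clones, 0 of all probe sets and 0 of 23 members were called in the fit without a block, with the clone as a replicate block (0 and 0), with the methods' t-test, an intensity trend, quantile normalization, median centring or a mean of at least 6, and with any 1 array left out. With clone A1 left out and the remaining clones as a replicate block, 981 of all probe sets were called (392 higher and 589 lower in induced cells) and 3 members, Smc4 1427275_at, Smc6 1422910_s_at and Smc2 1429658_a_at. With B3 or C6 left out, 0 members were called, and without A1 but with no block 0 were called. The count of members that moved in A1 against both other clones was 17 of 23, 18 after quantile normalization, 17 after median centring, 14 of 20 at a mean of at least 6 and 6 of 7 with 1 probe set per gene. Smc4 1427275_at differed by 1.497 on the log2 scale with A1 left out, and by -0.04 with B3 or with C6 left out, where it was not called. With 1 array per clone and state, the spread within a clone was not measured.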
